A study of Mus musculus with 6 samples.

Results

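Obsl1 and Speg, a pair of genes of the obscurin family that lie close together on mouse chromosome 1, were followed here for their transcript levels and for the use of each of their exons, introns and alternative ends. They were found by their symbols in every deposited table. They are 2 of the 14619 genes listed, and they hold 13 of 31476 splicing events called by rMATS (4 of Obsl1 and 9 of Speg) and 26 of 60273 events called by CASH (11 of Obsl1 and 15 of Speg). The libraries were made from RNA of a fast leg muscle, the tibialis anterior, of mice in which the splicing-associated nuclear protein acinus, encoded by Acin1, was to be lost in skeletal muscle fibres. All 6 libraries carried the HSA-Cre transgene (HSA-Cre Tg/+), in which a human skeletal actin promoter drives Cre recombinase in muscle fibres. The 3 control libraries, replicates 1, 2 and 3, were Acin1 +/+ and the 3 knockout libraries, replicates 5, 7 and 8, were Acin1 F/F. The other cells of the muscle keep their Acin1 alleles, and the ages and sexes of the mice were not given in the sources used here. Nothing in the labels says that the libraries of a group came from separate animals, so the p-values measure the spread between libraries.

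The obscurin family consists of large muscle proteins built from chains of immunoglobulin-like and fibronectin-like domains. Obsl1 is a cytoskeletal adaptor that links titin and myomesin at the M-band, the centre of the sarcomere, and that also scaffolds the cullin 7 ubiquitin ligase in the 3-M complex. In humans, loss of OBSL1 causes the growth disorder 3-M syndrome. Speg is a striated muscle kinase with a pair of kinase domains. It binds the lipid phosphatase myotubularin and desmin near the triad, the junction of the surface membrane tubules with the calcium store, and loss of human SPEG causes a centronuclear myopathy. A short product made from an internal start of the same gene, Apeg1, is known from arterial smooth muscle. Because a domain of these proteins is often encoded by a single exon whose length is a multiple of 3 bases, an exon can be left out without a change of reading frame.

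The exon with the lowest unadjusted limma p among the tested rMATS events of both genes was exon 9 of Obsl1, at chr1:75470429-75470701 (GRCm39, minus strand). Its sequence is shown with that of the other large exon of Obsl1 that both splicing callers listed, at chr1:75468711-75468986 on the same strand, and capitals mark the first and last 3 bases of each. The letters are from GENCODE M21 transcripts, which are on GRCm38, matched to the deposited events by exon and intron lengths.
Obsl1 exon 9: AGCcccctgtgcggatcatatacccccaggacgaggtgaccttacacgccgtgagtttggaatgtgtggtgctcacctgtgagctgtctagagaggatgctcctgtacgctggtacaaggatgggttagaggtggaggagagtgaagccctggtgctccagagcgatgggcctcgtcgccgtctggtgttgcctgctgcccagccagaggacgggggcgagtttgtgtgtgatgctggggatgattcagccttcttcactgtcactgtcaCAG
Obsl1 276-base exon: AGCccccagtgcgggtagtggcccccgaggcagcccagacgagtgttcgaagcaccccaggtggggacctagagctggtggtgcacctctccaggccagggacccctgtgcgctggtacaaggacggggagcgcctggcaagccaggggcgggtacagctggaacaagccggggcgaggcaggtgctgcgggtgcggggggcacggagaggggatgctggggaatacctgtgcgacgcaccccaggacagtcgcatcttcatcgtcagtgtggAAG

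Exon 9 has 273 bases, or 91 codons, and the other exon 276 bases, or 92 codons. Both begin at phase 1 and hold 0 stop codons in that frame, so leaving either out keeps the frame downstream. Exon 9 is the ninth of the 20 exons of the longest annotated transcript, Obsl1-202, in which 16 of 18 internal exons have a length divisible by 3 and 14 have between 250 and 310 bases. By contrast, Speg-201 has 41 exons, and 20 of its 39 internal exons have a length divisible by 3. In pairwise alignment of exons 6 to 10 and the 276-base exon, identities lay between 46.7% and 69.2% of aligned positions. Exon 9 was identical to exon 7 at 69.2%, to exon 8 at 63.4% and to the 276-base exon at 52.7%. The 276-base exon is exon 3 of the short annotated transcript Obsl1-205 and lies in intron 11 of Obsl1-202, which therefore leaves it out. The reads that count for or against exon 9 cross the following junctions, in which capitals mark bases of exon 9 and lower case its neighbours.
exon 8 to exon 9: ccatcaccgtcacagAGCCCCCTGTGCGGA
exon 9 to exon 10: CTGTCACTGTCACAGctccaccagaaagga
exon 8 to exon 10: ccatcaccgtcacagctccaccagaaagga

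The libraries held between 21084522 and 29301125 reads in listed genes, and 1645 genes (11.3%) passed the test across all genes, limma on the deposited log2 values with a Benjamini-Hochberg adjusted p under 0.05. Acin1 itself had 1513, 1559 and 1413 scaled reads in control replicates 1, 2 and 3 and 1196, 1196 and 1195 in knockout replicates 5, 7 and 8 (log2 change -0.32, SE 0.0709, limma adjusted p = 0.0266). Scaled reads are the read count of a gene divided by the authors' factor for the library. The groups did not overlap, as for 35.4% of all genes. The call was lost without any 1 of the control libraries and without knockout replicate 7 (highest adjusted p = 0.0973). It was also lost in limma without the trend (adjusted p = 0.0820). All 5 fibre markers (Acta1, Ckm, Myh4, Mylpf and Tnnt3) were measured and 0 passed the test, and of 5 cardiac markers only Myh6 was listed. In such bulk samples, fewer cells of a type and less RNA per cell cannot be told apart.

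The level of Speg transcripts was lower in all 3 knockout libraries than in any of the 3 controls, by an amount that did not pass the adjusted threshold. Speg (ENSMUSG00000026207) had 10258, 10301 and 10242 scaled reads in control replicates 1, 2 and 3 and 9580, 9296 and 7920 in knockout replicates 5, 7 and 8. The control libraries lay within a very narrow range, the knockout libraries were spread more widely, and replicate 8 was the lowest. The means were 10267 ± 30.5 and 8932 ± 888 scaled reads (SD, n = 3 each), a ratio of 0.867 with a 95% interval from 0.754 to 0.998. The log2 change of -0.21 (SE 0.0889) had an unadjusted p of 0.0471 and an adjusted p of 0.164 in limma. Without knockout replicate 8 it was -0.12 (adjusted p = 0.299). The authors' deposited table gave -0.20 with an adjusted p of 0.185. Groups without overlap were found for 35.4% of all genes.

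Obsl1 transcripts did not separate the groups. Obsl1 (ENSMUSG00000026211) had 1496, 1259 and 1127 scaled reads in control replicates 1, 2 and 3 and 1347, 1553 and 1450 in knockout replicates 5, 7 and 8. Control replicate 1 lay among the knockout libraries, and the other control libraries lay below all of them. The means were 1294 ± 187 and 1450 ± 103 scaled reads (SD, n = 3 each), a ratio of 1.13 with a 95% interval from 0.945 to 1.34, and limma gave a log2 change of 0.17 (SE 0.111, adjusted p = 0.343). Without control replicate 3 it was 0.08, and without control replicate 1 it was 0.28 (adjusted p = 0.711 and 0.148). In the authors' deposited table the change was 0.16 with an adjusted p of 0.470. Neither gene passed the adjusted threshold in limma or in the authors' table. In the main limma fit 1 of the 2, Speg, had an unadjusted p under 0.05, as did 29.3% of all genes.

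**Figure D1:**
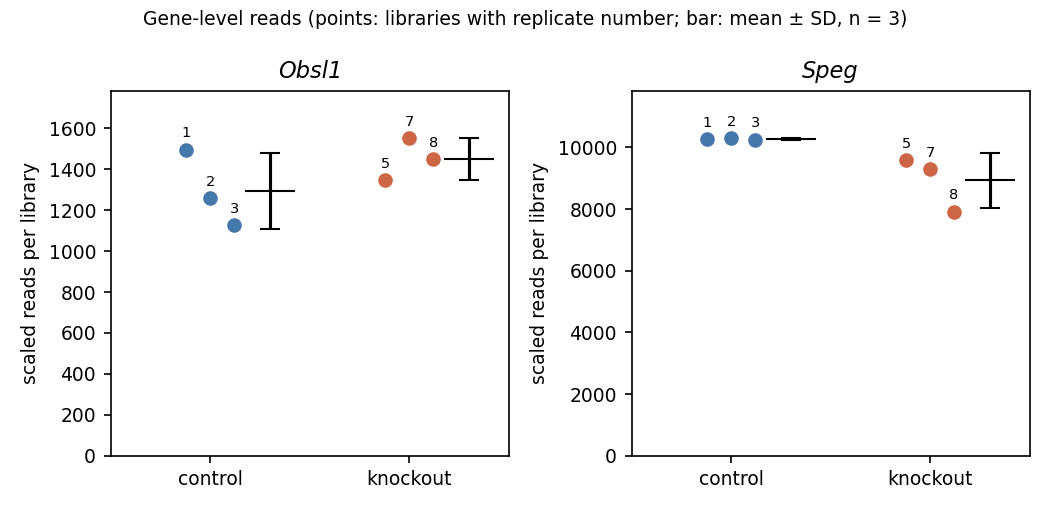
Scaled reads of Obsl1 (left) and Speg (right) in each library, with points numbered by replicate and the mean ± SD of 3 libraries per group on linear axes from 0. The 3 Speg knockout values, 9580, 9296 and 7920, lie below all control values, while the Obsl1 groups overlap.

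Per kilobase of the longest annotated transcript, Speg was the more abundant of the pair in every library. Speg-201 has 10801 bases, which gave 951 ± 2.82 scaled reads per kilobase in control replicates and 827 ± 82.2 in knockout replicates. Obsl1-202 has 5679 bases, which gave 228 ± 32.9 and 255 ± 18.1 (SD, n = 3 each). The ratio of Speg to Obsl1 per kilobase lay between 3.61 and 4.78 in the control libraries and between 2.87 and 3.74 in the knockout libraries (exact permutation test, two-sided, p = 0.2). The groups overlapped in this ratio, since control replicate 1 had the lowest control value and knockout replicate 5 the highest knockout value.

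Exon usage was compared by rMATS junction reads, which count reads that join an exon to its neighbours or skip it. The rMATS columns are headed only sample 1 and sample 2. They were read as control and knockout by the exclusion reads of the CASH columns, which name the groups. The CASH control reads equalled those of sample 1 in 294 of 1612 exons and those of sample 2 in 31. The 3 entries of each sample carry no replicate number. All 4 Obsl1 events and 5 of the 9 Speg events reached the minimum of 20 junction reads per library on average. Among these 9 events, 0 passed limma on the log2 ratio of inclusion to exclusion reads, against 2.13% of the 12827 exon-skipping events and 1.84% of the 1631 intron-retention events tested. Only exon 9 of Obsl1 had an unadjusted limma p under 0.05, as did 14% of the exon-skipping events. This limma result was lost in the fit without weights by counting precision. It was also lost when any 1 library was left out, except the second entry of sample 2. The direction of the change was kept in all these fits.

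Reads that skip exon 9 of Obsl1 were few in all libraries and more numerous in the libraries read as knockout. The skipping junction, exon 8 to exon 10, had 1, 2 and 1 reads in the 3 entries of sample 1 and 7, 3 and 5 in those of sample 2. The inclusion junctions had 146, 114 and 70 reads in sample 1 and 92, 144 and 137 in sample 2. Each sample 2 entry thus held more skipping reads than any sample 1 entry, while the inclusion reads overlapped. These are raw reads, and the sample 2 entries also held more reads over all exon-skipping events. They held between 9527986 and 10454386 in sample 2 and between 7166477 and 9110588 in sample 1.

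With inclusion reads divided by the length open to them, as rMATS does, the share of transcripts that skipped exon 9 was 1.35%, 3.39% and 2.78% in sample 1 and 13.2%, 4.0% and 6.80% in sample 2. Inclusion was 97.5% ± 1.05 against 92.0% ± 4.72 (SD, n = 3 each), and the groups did not overlap, as for 9.93% of exon-skipping events with such coverage (two-sided exact permutation p = 0.1, a floor set by 3 libraries per group). The first entry of sample 2 skipped the exon most often. In limma the log2 ratio of inclusion to exclusion reads changed by -1.48 (SE 0.579, 95% interval -2.72 to -0.23), with an unadjusted p of 0.0236 and an adjusted p of 0.264. Without the first entry of sample 2 the change was -0.90. The deposited rMATS FDR was 0.0941. None of the 9 exon-skipping events of the pair, whatever their coverage, and none of their 2 intron events had a deposited FDR under 0.05, against 3.16% and 3.48% of all events of those kinds.

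CASH listed exon 9 with 338 inclusion and 4 exclusion reads in control and 241 and 10 in knockout. These are largely the same reads, pooled per group, and the knockout column matched the sum of only 2 of the 3 knockout libraries. Inclusion there was 98.8% (95% exact binomial interval 97.0% to 99.7%, counting error only) against 96.0% (92.8% to 98.1%), and the intervals overlapped. The authors' deposited CASH table gave an FDR of 0.999.

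The 276-base exon of Obsl1 was included in most transcripts in both groups. Its inclusion junctions had 82, 62 and 51 reads in sample 1 and 87, 111 and 106 in sample 2, and the junction that skips it had 5, 4 and 4 reads against 8, 7 and 6. Both kinds of raw read were higher in sample 2, whose entries also held more reads over all exon-skipping events. Inclusion was 88.1% ± 1.42 against 87.7% ± 2.85 (SD, n = 3 each). The log2 ratio changed by -0.01 with a 95% interval from -0.70 to 0.67 (limma adjusted p = 0.981). A shorter form of this exon, of 115 bases as in the noncoding transcript Obsl1-209, was listed as a separate event that shares the skipping reads and the upstream junction. Its log2 ratio changed by 0.14 (limma adjusted p = 0.791).

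Intron 3 of Obsl1, of 151 bases, was spliced out in most transcripts. Reads across the borders between the intron and its exons numbered 9, 5 and 4 in sample 1 and 13, 4 and 7 in sample 2. Beside them were 45, 27 and 37 against 28, 63 and 50 spliced reads. Retention was 7.56% ± 2.13 against 9.49% ± 8.28 (SD, n = 3 each), and the first entry of sample 2 lay far above the others at 18.8%. The log2 ratio changed by 0.27 (SE 0.537, limma adjusted p = 0.908). Without that entry it was -0.70, in the opposite direction.

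**Figure D2:**
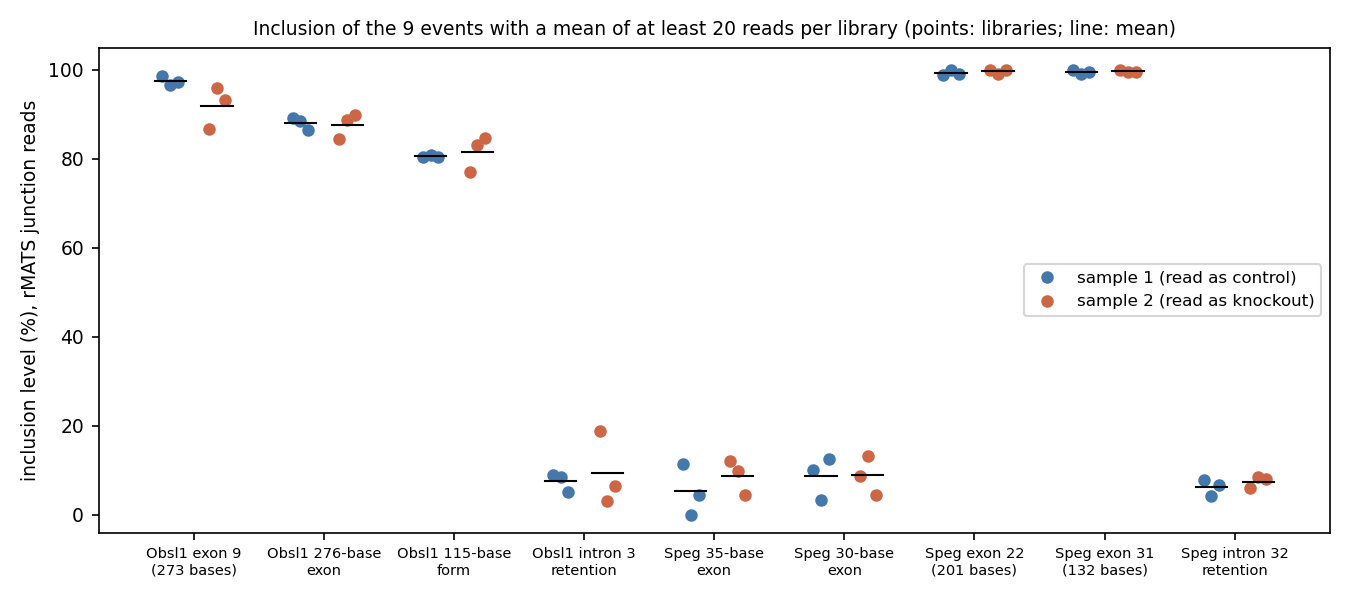
Inclusion level in percent from rMATS junction reads for the 4 Obsl1 and 5 Speg events that reached an average of 20 reads per library, with a point per library entry and a line at the mean of 3. For exon 9 of Obsl1 the sample 2 points lie below all sample 1 points, the lowest at 86.8%, and in the other 8 events the groups overlap.

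CASH also listed introns and ends of Obsl1 that rMATS did not. The widest difference was at intron 18 of Obsl1-202 (chr1:75463553-75463867, GRCm39, minus strand, flanking bases included), near the 3′ end of the gene. It had 75 reads for retention and 90 for splicing in control and 26 and 66 in knockout. Retention was 45.5% (exact binomial interval 37.7% to 53.4%) against 28.3% (19.4% to 38.6%), and the deposited FDR was 0.999. Intron 12 of the same transcript stood at 38.0% (28.5% to 48.3%) against 29.4% (21.02% to 38.8%). Intron 8 of Obsl1-201 went the other way, with 61.9% (38.4% to 81.9%) against 66.7% (47.2% to 82.7%) from 21 and 30 reads in all. Its splicing reads, 8 in control and 10 in knockout, equal those that join the short last exon of Obsl1-201. The 172 and 143 reads that pass over that last exon are not counted, so this is not a share of all Obsl1 transcripts. An alternative last exon of 289 bases, which ends the shorter transcript Obsl1-201, had 8 of 180 reads against 10 of 153, or 4.44% against 6.54%. For introns 12 and 8 and the short end the intervals overlapped widely, and for intron 18 they overlapped at their edges.

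Speg exons inside the long transcript were included almost completely in both groups. Exon 31 of Speg-201 (chr1:75400460-75400591, GRCm39, plus strand, 132 bases) was the Speg exon with the most junction reads. It had 564, 489 and 389 inclusion reads in sample 1 and 385, 496 and 412 in sample 2, with 0, 2 and 1 skipping reads against 0, 1 and 1. Inclusion was 99.6% ± 0.41 against 99.7% ± 0.26 (SD, n = 3 each), and the log2 ratio changed by 0.40 (SE 0.706, limma adjusted p = 0.742). Exon 22, of 201 bases, had 2, 0 and 1 skipping reads against 0, 1 and 0, and its log2 ratio changed by 0.76 (SE 0.750, limma adjusted p = 0.594). Neither exon had more than 2 skipping reads in any library.

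Intron 32 of Speg-201, of 163 bases, was retained at a low level in both groups. Reads across its borders with the exons numbered 46, 25 and 31 in sample 1 and 33, 50 and 38 in sample 2. Beside them were 272, 278 and 214 against 257, 269 and 219 spliced reads. Retention was 6.28% ± 1.79 against 7.51% ± 1.3 (SD, n = 3 each). The groups overlapped, and the log2 ratio changed by 0.25 (SE 0.236, limma adjusted p = 0.733), or by between 0.05 and 0.49 with a library left out. CASH gave 8.52% against 9.32% for the same intron, on shares that are not divided by length.

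The only Speg event that passed a deposited rMATS threshold was a choice between neighbouring 3′ splice sites 5 bases apart, in a small exon near the 5′ end of the gene (chr1:75360678-75360712, GRCm39, plus strand). The long form has 35 bases, as in Speg-208, a transcript annotated as subject to nonsense-mediated decay. The short form has 30 bases, as in the protein-coding Speg-214, and keeps the reading frame. Capitals mark the bases that the short form leaves out.
Speg 35-base exon: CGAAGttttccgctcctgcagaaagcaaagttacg
Speg 30-base exon: ttttccgctcctgcagaaagcaaagttacg

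The long form had 3, 0 and 0 reads in sample 1 and 7, 1 and 1 in sample 2, and the short form 1, 2 and 2 against 2, 1 and 0. Its deposited FDR was 0.0247, below 0.05 as for 2.8% of events of this kind. The mean was 3.33 reads per library, under the minimum of 20, so no test was made here. Of the 92 events of this kind with a deposited FDR under 0.05, 43 lay under that minimum. The use of the long form was 24.7% ± 42.8 against 75.2% ± 25.7 (SD, n = 3 each), and the groups overlapped. A second listing of the same splice sites with another upstream exon had 3, 1 and 0 long-form reads against 7, 1 and 1, and a deposited FDR of 1.

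Between the first exon of Speg-201, of 537 bases, and the exon of 90 bases, most rMATS reads skipped both forms. The skipping junction had 34, 22 and 16 reads in sample 1 and 16, 20 and 16 in sample 2. Against it, the 35-base form had 6, 0 and 1 inclusion reads against 3, 3 and 1, and the 30-base form 5, 1 and 3 against 2, 4 and 1. The log2 ratio changed by 0.21 (SE 0.566, limma adjusted p = 0.823) for the 35-base form and by 0.12 (SE 0.503, limma adjusted p = 0.886) for the 30-base form. The skipping reads and the inclusion junction to the 90-base exon are shared by both events, so the 2 fits are not separate results. The other 2 exon-skipping events of Speg, with another upstream exon, had at most 1 skipping read in any library. CASH listed the 35-base exon with 21 inclusion reads and 1 exclusion read in control and 15 and 0 in knockout. Its inclusion there was 95.5% (exact binomial interval 77.2% to 99.9%) against 100% (78.2% to 100%). In the rMATS event for the same exon with the other upstream exon, inclusion lay between 81.6% and 100% in every library. That event had a mean of only 2.67 reads per library, under the minimum of 20.

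Reads per junction, scaled to counts-per-million over the exon-skipping sheet, gave a level for separate places along each gene. At the junction of the first exon of Speg the level was 3.73, 2.46 and 2.23 in sample 1 and 1.68, 1.91 and 1.64 in sample 2, a ratio of means of 0.622. The ratio was 0.822 at exon 22, 0.762 at exon 31 and 0.829 at the spliced junction of intron 32. At each of the 4 places the groups did not overlap (exact permutation test, two-sided, p = 0.1 for each, the smallest possible). Inclusion junction levels, as at exons 22 and 31, did not overlap for 28.8% of the exon-skipping events with such coverage. For skipping or spliced junctions, as at the first exon and intron 32, that share was not computed. The first-exon junction, as a percent of the exon 31 junctions, was 12.1%, 9.0% and 8.23% against 8.31%, 8.06% and 7.77%, and these overlapped (exact permutation p = 0.2). These junction reads are a part of the gene's own reads, so they do not stand apart from its gene-level value.

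Along Obsl1 the levels did not move in 1 direction. The ratio of means was 1.07 at the spliced junction of intron 3 (exact permutation p = 0.8) and 0.974 at exon 9 (p = 0.9, same test). At the 276-base exon the level was 4.50, 3.46 and 3.56 in sample 1 and 4.57, 5.31 and 5.44 in sample 2, a ratio of 1.33. The groups did not overlap there (exact permutation p = 0.1, the smallest possible), as for 28.8% of the exon-skipping events with such coverage.

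**Figure D3:**
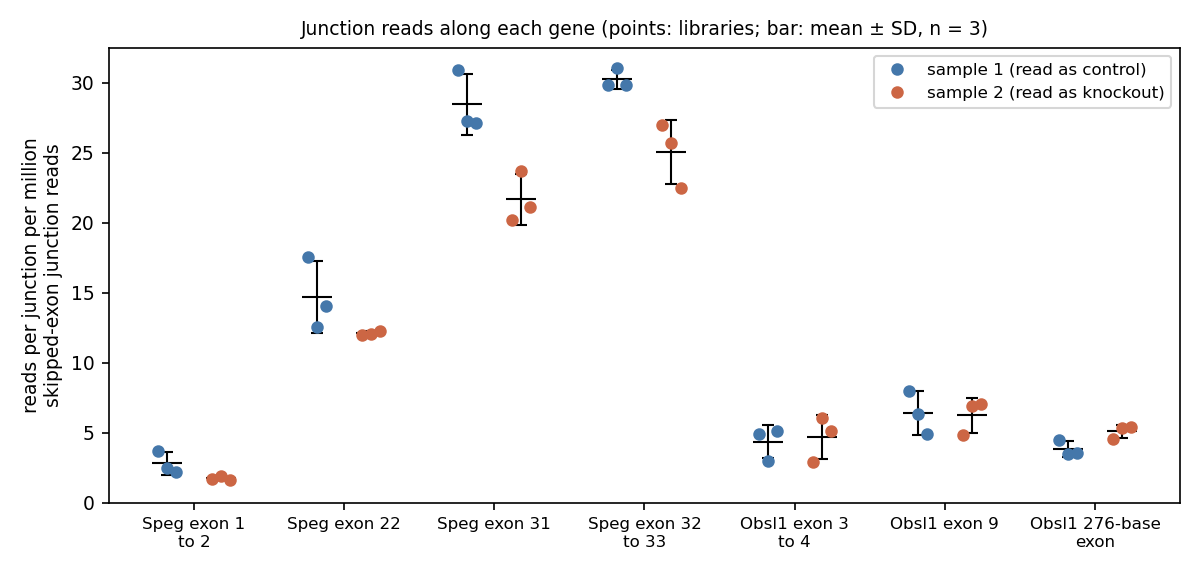
Reads per junction, as counts-per-million over the exon-skipping sheet, at 4 places along Speg and 3 along Obsl1, with a point per library entry and the mean ± SD of 3 entries on a linear axis from 0. All Speg sample 2 points lie below the sample 1 points of the same place, and the largest separation in Obsl1 is at the 276-base exon, with a ratio of 1.33.

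Starts and ends of Speg were covered by CASH, with 1 pooled value per group and no test here beyond the deposited FDR. The internal start that opens Speg-204 (chr1:75376729-75376906, GRCm39, plus strand), from which the short Apeg1-type product of 113 codons is annotated, had 70 reads against 321 for the longer transcript in control and 43 against 221 in knockout. Its share was 17.9% (exact binomial interval 14.2% to 22.1%) in control and 16.3% (12.1% to 21.3%) in knockout. Other starts of the same product had 7 and 1 reads (Speg-203) or 0 in both groups (Speg-202), where a count of 0 allows a share of up to 0.923% of 398 reads in control and 1.38% of 265 in knockout by the exact interval. The last exon of Speg-206, which carries the same 113 codons, had 23 of 247 reads against 22 of 156, or 9.31% (6.0% to 13.6%) against 14.1% (9.05% to 20.6%). The widest Speg difference was at a start of 49 bases in the noncoding transcript Speg-215, with 11.9% (5.86% to 20.8%) against 26.0% (14.6% to 40.3%) from 10 and 13 reads. For each of these places the intervals of the groups overlapped.

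Of the 26 CASH events, 0 had a deposited FDR under 0.05, against 0.0465% of all 60273, and the lowest FDR among them was 0.999. The change of inclusion from control to knockout lay between -17.2 and 4.76 percentage points for the 11 Obsl1 events and between -6.33 and 14.1 for the 15 Speg events. The summed reads of an event in knockout, as a ratio to control, lay between 0.468 and 0.777 for Speg and between 0.558 and 1.43 for Obsl1, where the ratio over all CASH events was 0.781. All Speg events therefore lay below the ratio of the whole table.

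**Figure D4:**
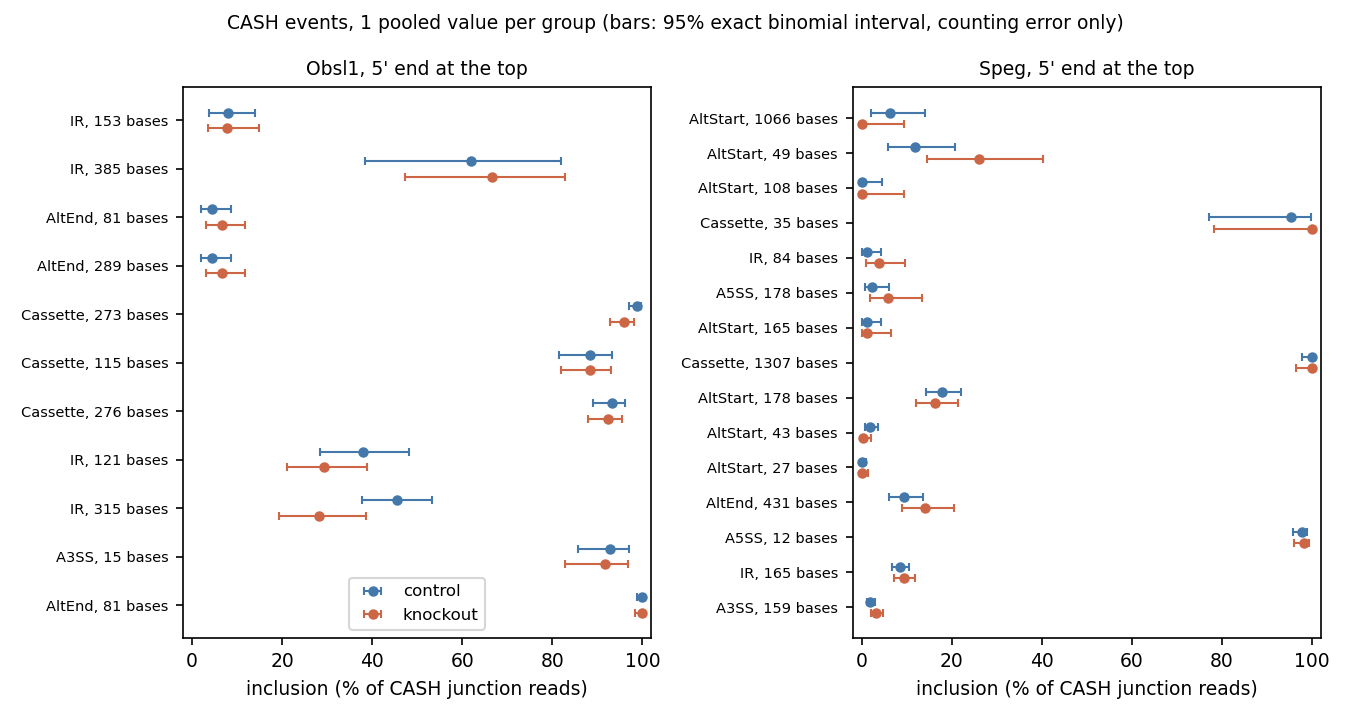
Inclusion in percent of CASH junction reads for the 11 Obsl1 events (left) and the 15 Speg events (right), ordered from the 5′ end, with 1 pooled value per group and bars for the 95% exact binomial interval (AltStart, alternative start; AltEnd, alternative end; IR, intron retention; A5SS and A3SS, alternative 5′ and 3′ splice sites). The Obsl1 intron of 315 bases stands at 45.5% in control and 28.3% in knockout, and all intervals overlap between the groups.

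Lists of related genes were examined beside the pair, each with its called members and the median log2 change, where the median of all genes was -0.01. In each of these lists most members did not pass the test, which 11.3% of all genes passed. Of 14 M-band and reticulum links measured, which include the myomesins, the ankyrins and the M-band adaptor Nbr1, 0 passed in limma, 2 had an unadjusted p under 0.05, and the median was 0.03. An unadjusted p under 0.05 was found for 29.3% of all genes. Nbr1 was the closest, with 1876 ± 59.7 scaled reads in control and 2277 ± 186 in knockout (log2 change 0.28, adjusted p = 0.0600), and Fhl2 had 0.87 (adjusted p = 0.0988). Of 6 partners of Obsl1 in the 3-M complex, 0 passed and none had an unadjusted p under 0.05, with a median of 0.02. The cullin Cul7 itself had 162 ± 30.7 scaled reads in control and 205 ± 69.2 in knockout (log2 change 0.29, adjusted p = 0.461).

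Among 14 partners of Speg at the triad and in centronuclear myopathy, 1 fell (against 5.51% of all genes), 13 did not pass and the median was 0.03. The gene that fell was Jph1, which encodes a junctophilin that tethers the tubule to the calcium store. It had 9464, 9587 and 9835 scaled reads in control replicates 1, 2 and 3 and 8294, 7673 and 6297 in knockout replicates 5, 7 and 8 (log2 change -0.38, SE 0.105, adjusted p = 0.0498). Its call was lost without any 1 of the control libraries and without knockout replicate 7 or 8 (highest adjusted p = 0.143). It was also lost in limma without the trend, in limma-voom and with 1 in place of 4 added before the log. The myotubularin gene Mtm1 had a log2 change of -0.08 (adjusted p = 0.579), and the desmin gene Des one of 0.19 (adjusted p = 0.291).

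Of 8 kinases of muscle and of the light chain kinase family that were measured, 0 rose, 2 fell and 6 did not pass, with a median of -0.13. In the same test 5.51% of all genes were called lower. Camk2a, a calcium-calmodulin kinase, went from 10517 ± 488 to 7583 ± 1019 scaled reads (log2 change -0.48, adjusted p = 0.0270), a call that was lost without any 1 control library and in limma without the trend. Mylk, the smooth muscle light chain kinase, went from 723 ± 30.9 to 520 ± 86.0 (log2 change -0.48, adjusted p = 0.0376), a call lost without any 1 control library and without knockout replicate 5 or 8 (highest adjusted p = 0.124), and in limma without the trend. Beside it, 3 of 7 smooth muscle and pericyte markers fell (Tagln, Rgs5 and Notch3), though without the trend only the call of Tagln was kept, and with single libraries left out Tagln was called in 4 of 6 fits, Rgs5 in 3 and Notch3 in 1. The summed level of the 7 was 485 to 535 CPM (counts-per-million) in control and 323 to 422 in knockout. Of 5 endothelial markers 3 fell (Tie1, Tek and Pecam1), with a summed level of 277 to 342 against 201 to 272 for the list. All 3 calls were lost without the trend, that of Pecam1 also under scaling by total reads, and with single libraries left out they were made in 3, 2 and 1 of 6 fits. Of the other lists 0 of 4 fibroblast and 0 of 5 macrophage markers passed. The part of these cells in the values of Mylk, Speg and its Apeg1-type start was not tested.

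Of 11 sarcomere proteins with immunoglobulin-like domains that were measured, 2 rose, 0 fell and 9 did not pass, with a median of 0.03. Igfn1, an immunoglobulin and fibronectin domain protein of the Z-disc, had 2609, 2237 and 703 scaled reads in control replicates 1, 2 and 3 and 13101, 12411 and 26938 in knockout replicates 5, 7 and 8 (log2 change 3.35, SE 0.478, adjusted p = 0.00622). Its call was kept in each of the 6 fits that left out a library. Mybph, a myosin-binding protein, went from 331 ± 107 to 782 ± 187 scaled reads (log2 change 1.26, adjusted p = 0.0195), a call lost without control replicate 3 or knockout replicate 7, in limma without the trend and in robust limma (highest adjusted p = 0.0639). Titin had a log2 change of -0.10 (adjusted p = 0.697). Over all genes, 5.74% were called higher and 5.51% lower in knockout.

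Gene order on chromosome 1 places Gmppa and Chpf between Speg and Obsl1. Of the 19 listed genes within 250 kb of either, 2 rose, 1 fell and the median was 0.11. The shares over all genes were 5.74% higher and 5.51% lower, with a median of -0.01. The gene that fell was Gmppa, which encodes a regulatory subunit of the enzyme that makes GDP-mannose. It had 508, 582 and 567 scaled reads in control replicates 1, 2 and 3 and 349, 302 and 314 in knockout replicates 5, 7 and 8 (log2 change -0.77, SE 0.0981, adjusted p = 0.00432). Its call was kept in each of the 6 fits that left out a library. The genes that rose were Zfand2b, with a log2 change of 0.65 (adjusted p = 0.0376), and Gm15179, an antisense transcript annotated upstream of Speg on the other strand, with 0.75 (adjusted p = 0.0221). Both calls were lost without some single libraries, for Zfand2b without any but control replicate 2 and for Gm15179 without any 1 control library (highest adjusted p = 0.112 and 0.0824), and both in limma without the trend. Annotation also places Gm15178 opposite to Speg and Tmem198 opposite to the 3′ end of Obsl1. Whether the authors' counting used the strand is not given in the sources used here, so reads of such overlapping genes may be shared. The CASH introns that matched annotated introns by length, intron 18 of Obsl1 included, had no gene annotated on the other strand.

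**Figure D5:**
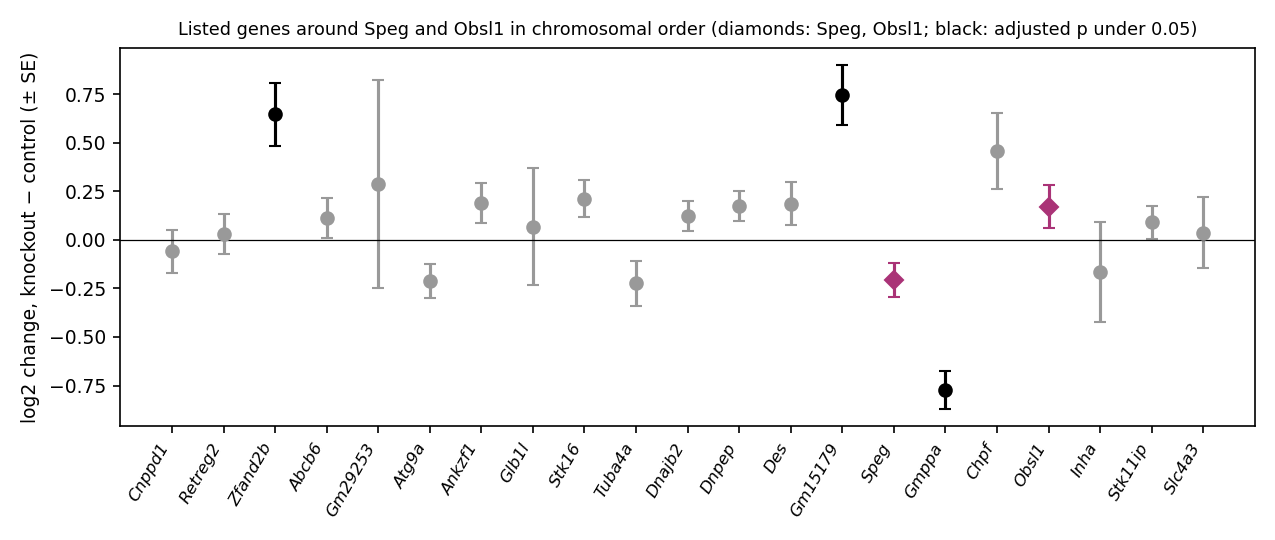
Log2 change from control to knockout with its SE (limma) for the 19 listed genes within 250 kb of Speg or Obsl1 and for both members as diamonds, in the order of the chromosome and without scale on that axis. Black points passed an adjusted p under 0.05, of which Gmppa at -0.77 lies next to Speg at -0.21.

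The genes most like each member across the 6 libraries were found by Pearson's correlation of log2 values among 12181 other genes with a mean CPM of at least 1, as a description. For Obsl1 they were Topbp1 (r = 0.994), Pias3 (0.992) and Mindy1 (0.981). For Speg, Atg9a and Cirbil each had r = 0.997, and Atg9a, an autophagy membrane protein gene, is also a neighbour of Speg on chromosome 1. Atg9a had 3749 ± 57.0 scaled reads in control and 3247 ± 341 in knockout, with knockout replicate 8 the lowest as for Speg (log2 change -0.21, adjusted p = 0.150). These values of r are among the highest of 12181 over only 6 libraries.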

How the data were processed

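RNA of 6 tibialis anterior libraries was sequenced from 0.3 µg of total RNA each with a directional kit, per the labels. STAR 2.7.9a, RSEM 1.3.3, Trimmomatic 0.39, FastQC 12.0 and the build GRCm39 are named in the submitters' processing notes, without roles. The gene values deposited by the authors are on a log2 scale. They equal log2 of a read count over a library factor, plus 4, and 100% of values gave whole reads (tolerance 0.001).

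They were tested with limma 3.58.1 (R 4.3.3, mean-variance trend, two-sided, no covariates). Per the file headers, the deposited rMATS sheets hold junction read counts, inclusion fractions and p-values with an FDR, and CASH holds pooled reads. The CASH control exclusion reads equalled the sum of sample 1 in 294 of 1612 exons and of sample 2 in 31. CASH knockout reads equalled the first 2 entries of sample 2 in 375 and all 3 in 2. Event ratios (0.5 added) were fitted by limma with a trend on coverage. Weights by counting precision were added after the planned unweighted fit failed when tested on simulated data. The deposited differences of inclusion, scores computed by the authors' rMATS and CASH runs as control minus knockout, were checked against the reads.

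The members and lists were chosen with earlier results of these data known. The genes and events named are the members, called events and the event with most reads per sheet, up to 4 genes per list with the smallest adjusted p, the neighbours and the 3 most correlated genes, of which 1 is not reported here. Mtm1, Des, Ttn and the called markers were named after their values were seen. Alternatives were other variance priors, limma-voom, scaling, added constants, filters on low values and single libraries left out. Exact binomial intervals and limits cover counting error only, while the limma intervals measure the spread between libraries.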

Additional observations from a re-analysis of the deposited data

How the results depend on the processing

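The gene-level changes kept their direction and stayed above the adjusted threshold in all 24 alternative fits, from -0.26 to -0.12 for Speg and from 0.08 to 0.28 for Obsl1. Genes called fell from 1645 to 792 without the trend and to between 477 and 1520 with a library left out, the lowest being 477, 488 and 511 when control 1, 2 or 3 was dropped and 698 when knockout 7 was. Called rMATS events numbered 364 in all and 68 in the unweighted fit that was first planned (the weights were chosen after seeing the data). They numbered 1020 by the deposited FDR and 60 to 112 with a library left out. The fits with a library left out also have fewer libraries, and the cause of their lower numbers was not tested. Speg events called went from 0 to 1 by the deposited FDR. Exon 9 of Obsl1 lay between -1.76 and -0.90 with a library left out (adjusted p 0.317 to 0.531) and between -1.48 and -1.25 otherwise. Direction reversed in 11 alternative event fits and was kept in 93, with 0 past the threshold. Without weights the change was -0.0025 for intron 3 of Obsl1, 1.04 in place of 0.21 for the 35-base form of Speg, 0.10 in place of 0.40 for exon 31 and 0.024 for the 276-base exon, which had 0.033 with 1 added. With a library left out, intron 3 ranged from -0.70 to 0.70, the 276-base exon from -0.14 to 0.21 (with 0.08 and 0.01 without the first or second entry of sample 1), the 35-base form of Speg from -0.026 to 0.41, the 30-base form from -0.30 to 0.35 (with -0.10), exon 31 from -0.12 to 0.66, exon 22 from 0.48 to 1.64 and the 115-base form of Obsl1 from 0.02 to 0.36. The planned edgeR and DESeq2 fits were not run. No paired analysis was possible because the groups share no replicate numbers. Depth limits the skipping of exons 22 and 31 of Speg, with 0 to 2 skipping reads per library, and genes of few reads were left out of the deposited table.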
